A study of Mus musculus with 6 samples.

Results

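IL-12 and IL-23 are cytokines of 2 chains that share 1 chain, and their receptors share 1 chain as well. The receptor chain IL-12Rβ1, encoded by Il12rb1, pairs with IL-12Rβ2 (Il12rb2) to bind IL-12 and with IL-23R (Il23r) to bind IL-23. The shared chain is tied to the kinase TYK2 and the other chains to JAK2. Signals from IL-12 pass mainly through STAT4 and favour Th1 cells, and signals from IL-23 pass mainly through STAT3 and maintain Th17 cells. The chromatin of these 3 genes was described from every ATAC-seq peak in the gene bodies and 50 kb on either side, in each of 6 peak lists. The rule that set these windows used names and positions and no measured value, although the genes were chosen with earlier results of these data known.

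The series compared accessible chromatin, which the transposase Tn5 cuts and tags, in Th9, Th2 and Th17 cells, with 2 libraries of each. Naive CD4+CD62L+ T cells of wild-type C57BL6/J mice were the starting cells in all 3 groups, and the labels give spleen as the tissue. The mice of the study were of both sexes and 8 to 16 weeks old, and the cells were activated with anti-CD3 and anti-CD28 antibodies and collected on day 5. Th2 cultures received IL-4, IL-2 and anti-IFN-γ. Th9 cultures received these and TGF-β. Th17 cultures received IL-6, TGF-β, IL-1β and IL-23, the ligand of the IL-23 receptor itself, with antibodies to IFN-γ, IL-4 and IL-2. No group received IL-12. These were populations polarized in culture, the libraries carry the replicate labels 1 and 3, and neither the labels nor the methods say that they came from separate animals. The p-values below therefore measure the spread between these libraries, which may be technical. In such bulk libraries a weaker peak in all cells and a peak in fewer of the cells cannot be told apart.

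Overlapping or abutting peaks of the 6 lists were merged into 236017 regions, of which 59 lay in the windows of the 3 genes. They held 251 peaks, 37 to 45 in each library, which were 164 to 5774 bp wide with a median of 658 bp. Il23r and Il12rb2 are neighbours on mouse chromosome 6 (GRCm38, the assembly shown as mm10), on the same strand and 46743 bp apart, so that their windows overlapped. Of the 38 regions there, 17 lay nearest Il23r and 21 nearest Il12rb2. The other 21 regions lay around Il12rb1 on chromosome 8. Each peak carries a fold enrichment over the background of its library, and its strength is given here as a percentile, the share of the peaks of the same list with that fold or a lower one.

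Library depth and identity were checked first. The lists held 100317 to 142213 peaks, and the background fragment coverage recovered from them ran from 5.65 in Th9 replicate 1, the shallowest library, to 17.7 in Th17 replicate 3. The weakest fold called was 2.11 in Th9 replicate 1 and 1.71 to 1.83 in the other 5 libraries, so that a missing call says least in that library. Promoters of the T cell genes Cd3e and Cd3g had a peak in all 6 libraries, but that of Cd4 had one in 4 and that of Trac in 2. Il17f had a promoter peak in the Th17 libraries only and Il13 in the Th2 libraries only. Il9 and Il4 had one in the Th9 and Th2 libraries only. The percentiles of Il9 were 88.7 and 90.7 in Th9 and 37.1 and 44.4 in Th2. Those of Il4 were 87.8 to 92.3 in the same libraries. Il17a, a Th17 marker, had a peak in both Th17 libraries and also in Th2 replicate 3, there at 36.1. Gata3, a Th2 marker, had one in all 6 libraries, at 87.7 to 95.6, and both Th9 libraries stood highest. Of 11 marker genes of other cell types, each library had a promoter peak at 2 to 5. Cd8b1 and Epcam had one in all 6, Itgax and Hba-a1 in both Th2 libraries, Klrb1c in 1 library, and Cd8a, Ms4a1, Cd79a, Lyz2, Csf1r and Ncr1 in none. The part of other cells in the results below was not tested.

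The windows of sequence that the results turn on are printed here from the mouse assembly, 5′ to 3′ on the strand of the gene. For a peak region the window is the stretch shared by the peaks of all libraries that called it, or its central 300 bases, and for a promoter the 250 bases before the start given by RefSeq on GRCm38. Capitals mark the matches to 6 short words searched on both strands. The words were TTCNNNGAA for STAT factors, TGANTCA for AP-1, TGTGGT for RUNX, AGATAA for GATA factors, AGGTGTGA for T-box factors and GAAANNGAA for IRF factors. The first 3 windows had a peak in the Th17 libraries alone or a stronger one there. They are the Il23r promoter (chr6:67491856-67492105), intron 3 (chr6:67483171-67483466) and intron 10 (chr6:67424956-67425169), all on the minus strand. The fourth, in intron 6 (chr6:67459411-67459697), was accessible in all 6 libraries.
Il23r promoter: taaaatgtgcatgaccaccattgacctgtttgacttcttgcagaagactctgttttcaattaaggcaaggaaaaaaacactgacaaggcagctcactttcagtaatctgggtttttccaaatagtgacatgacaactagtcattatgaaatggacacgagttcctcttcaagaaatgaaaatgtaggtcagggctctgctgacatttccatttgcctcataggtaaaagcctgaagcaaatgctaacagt
Il23r intron 3: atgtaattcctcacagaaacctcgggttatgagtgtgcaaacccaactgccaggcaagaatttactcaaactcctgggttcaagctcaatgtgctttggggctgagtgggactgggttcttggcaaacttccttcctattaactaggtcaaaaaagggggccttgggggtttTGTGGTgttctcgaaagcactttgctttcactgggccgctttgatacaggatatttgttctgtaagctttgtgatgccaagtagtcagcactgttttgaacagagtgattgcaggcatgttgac
Il23r intron 10: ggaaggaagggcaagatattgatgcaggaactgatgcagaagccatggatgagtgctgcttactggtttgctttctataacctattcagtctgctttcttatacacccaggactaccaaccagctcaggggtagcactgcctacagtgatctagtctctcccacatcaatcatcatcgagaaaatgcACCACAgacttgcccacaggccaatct
Il23r intron 6: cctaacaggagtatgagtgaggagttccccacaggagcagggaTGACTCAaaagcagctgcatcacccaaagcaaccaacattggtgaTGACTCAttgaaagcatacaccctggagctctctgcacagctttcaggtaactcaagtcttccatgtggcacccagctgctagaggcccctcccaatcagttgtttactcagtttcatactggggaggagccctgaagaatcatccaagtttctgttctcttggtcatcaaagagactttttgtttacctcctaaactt
The next 3 windows belong to Il12rb2, also on the minus strand. They are its promoter (chr6:67376189-67376438), a site upstream with no peak in the Th17 libraries (chr6:67383230-67383529) and a site in intron 12 (chr6:67302140-67302439). The intron 12 site was weaker in Th17 than in Th2. The last lies in intron 4 of Il12rb1 on the plus strand (chr8:70811261-70811557).
Il12rb2 promoter: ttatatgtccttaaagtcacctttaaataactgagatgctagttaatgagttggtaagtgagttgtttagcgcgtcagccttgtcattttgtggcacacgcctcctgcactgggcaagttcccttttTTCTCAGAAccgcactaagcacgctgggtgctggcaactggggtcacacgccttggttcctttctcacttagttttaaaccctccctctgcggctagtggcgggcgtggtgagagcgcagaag
Il12rb2 upstream site: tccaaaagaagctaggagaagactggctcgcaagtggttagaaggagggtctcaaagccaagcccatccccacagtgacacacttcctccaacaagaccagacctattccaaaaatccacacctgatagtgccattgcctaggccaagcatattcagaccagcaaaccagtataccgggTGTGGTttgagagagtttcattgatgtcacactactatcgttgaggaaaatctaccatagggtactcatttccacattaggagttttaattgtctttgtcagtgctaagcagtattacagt
Il12rb2 intron 12: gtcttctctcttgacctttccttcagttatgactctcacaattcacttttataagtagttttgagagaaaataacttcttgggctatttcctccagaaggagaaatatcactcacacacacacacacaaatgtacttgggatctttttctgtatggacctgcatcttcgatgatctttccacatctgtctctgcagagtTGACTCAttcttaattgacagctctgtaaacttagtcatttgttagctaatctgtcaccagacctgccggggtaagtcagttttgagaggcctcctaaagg
Il12rb1 intron 4: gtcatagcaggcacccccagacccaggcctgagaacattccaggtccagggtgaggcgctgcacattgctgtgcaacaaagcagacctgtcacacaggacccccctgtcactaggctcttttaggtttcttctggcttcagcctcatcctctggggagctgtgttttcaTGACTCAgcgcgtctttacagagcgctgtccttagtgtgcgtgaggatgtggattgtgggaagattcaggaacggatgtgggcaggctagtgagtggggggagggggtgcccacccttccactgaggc

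The Il23r promoter window was poor in G and C. They made up 39.6% of its bases, against a median of 52.4% over 32851 promoters of RefSeq, and 11.0% of those promoters had less. The Il12rb2 promoter window had 50.0%. Neither the Il23r promoter nor any of the other windows held a match to the GATA, T-box or IRF word. The 3 windows of Il23r with a peak in Th17 alone or a stronger one there held few words. A single RUNX word lay in intron 3 and another in intron 10. Such a word was present in 22% and 16.8% of the central stretches of equal length of all regions at least that wide. The intron 6 window, in contrast, held 2 AP-1 words, and 11.4% of such stretches held at least 1. AP-1 words also lay in the windows of Il12rb2 intron 12 (11.8% of stretches) and Il12rb1 intron 4 (11.7%). The Il12rb2 promoter held 1 STAT word, as did 7.02% of the promoters, and the upstream site 1 RUNX word (22.3% of stretches). A match describes letters only, and binding was not measured.

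Il23r (ENSMUSG00000049093.9, chr6:67422932-67491855, minus strand, 11 exons) was the only member of the 3 whose promoter had a peak in 1 subset alone. A promoter was taken as the 1000 bp before and the 100 bp after an annotated start. Neither Th9 library and neither Th2 library had a peak in it. Th17 replicate 1 had one of 421 bp at percentile 12.4 and Th17 replicate 3 one of 485 bp at percentile 62.1, with folds of 1.84 and 2.47. Both calls were weak, and that of replicate 1 had a −log10 q of 1.47 and would have lain under the weakest fold called in Th9 replicate 1. This pattern, both Th17 libraries and no other, was found at 0.228% of the promoters of protein-coding genes, at 58.7% of which all 6 libraries had a peak and at 28.0% none.

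A site in intron 3 of Il23r gave the largest differences between subsets among the regions of the 3 windows that were called in every library. This region, chr6:67481926-67483746, lies 9.02 kb downstream of the start and was called in all 6 libraries. Its percentiles were 76.6 and 65.6 for Th9, 56.2 and 43.5 for Th2 and 96.1 and 88.2 for Th17. The fold enrichment was 3.38 and 2.85 for Th9, 2.34 and 2.23 for Th2, and 8.43 and 4.62 for Th17, so that both Th17 libraries lay above the other 4. The Th17 peaks were also the widest, 690 and 1821 bp against 326 to 474 bp elsewhere. The fold of a broad peak is an average over its width, and whether the widths bear on these folds was not tested.

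In a limma fit to the log2 fold of the 50493 regions called in all 6 libraries, quantile normalized, this intron 3 region was higher in Th17 than in Th9 by 1.18 ± 0.21 (log2, SE, Benjamini-Hochberg adjusted p = 0.00377). Against Th2 it was higher by 1.59 ± 0.21 (adjusted p = 0.000274). Its difference from Th2 exceeded that of 99.97% of all regions fitted, and its difference from Th9 that of 99.72%. Between Th9 and Th2 the difference was 0.41 ± 0.21 and did not pass (adjusted p = 0.333). Without Th17 replicate 1, the library with the highest fold, the difference from Th9 was 0.87 and no longer passed (adjusted p = 0.0835), and with normal scores of the percentile in place of log2 folds it did not pass either (adjusted p = 0.109), within a range of 0.000171 to 0.109 over the alternatives. The difference from Th2 passed under every alternative in which the region could be fitted, with adjusted p from 2.72e-07 to 0.0188. At a −log10 q of at least 5 or a fold of at least 4 it could not be fitted, since some Th9 or Th2 peaks were then lost.

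Another site in the body of Il23r was called in both Th17 libraries and no other. It lies in intron 10, near the end of the gene (chr6:67424924-67425241), at percentiles 78.2 and 47.8 and folds of 3.30 and 2.15. With the promoter it made 2 of the 59 regions of this pattern, against 1.7% of all regions, and both belonged to Il23r. Both lost the pattern when only peaks of a fold of at least 2.2 were kept, which gives all lists about the same weakest call. At a fold of at least 4 the intron 3 region took their place, since its Th9 and Th2 peaks were then lost. When uncalled libraries were set to the weakest fold of their list, neither the promoter nor the intron 10 site passed in the limma fit. Th17 was higher at the promoter by 0.35 against Th9 (adjusted p = 0.38) and by 0.35 against Th2 (adjusted p = 0.37). At intron 10 it was higher by 0.66 against Th9 (adjusted p = 0.104) and by 0.66 against Th2 (adjusted p = 0.0925).

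Not all of Il23r was more accessible in Th17. The intron 6 region (chr6:67458714-67459851, 32.6 kb from the start) was strong in every library, at percentiles 91.7 and 85.3 for Th9, 95.0 and 92.4 for Th2 and 96.4 and 90.7 for Th17. Its differences were 0.51 between Th17 and Th9 (adjusted p = 0.143) and 0.11 between Th17 and Th2 (adjusted p = 0.83). Another site in intron 6, at 30.2 kb (chr6:67461379-67461851), was called in both Th2 libraries only, at 64.2 and 39.0, a pattern of 2.87% of all regions. The broad region of intron 2 (chr6:67488000-67489987) was called in Th9 replicate 1, Th2 replicate 1 and both Th17 libraries, at percentiles 59.7, 55.9, 29.9 and 45.9.

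The other 4 regions in the body of Il23r were called in 1 or 2 libraries without following a subset. In intron 5, Th2 replicate 1 alone had a peak, 1028 bp wide at percentile 47.3. Of the 2 regions of intron 7, one was called in Th9 replicate 1 and Th2 replicate 3 at 59.9 and 64.9 and the other in Th2 replicate 3 alone at 5.05. The region of intron 8 was called in Th2 replicate 1 alone, at 23.5. Of the 17 regions nearest Il23r, 4 were called in 1 library, against 37.2% of all regions.

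**Figure D1:**
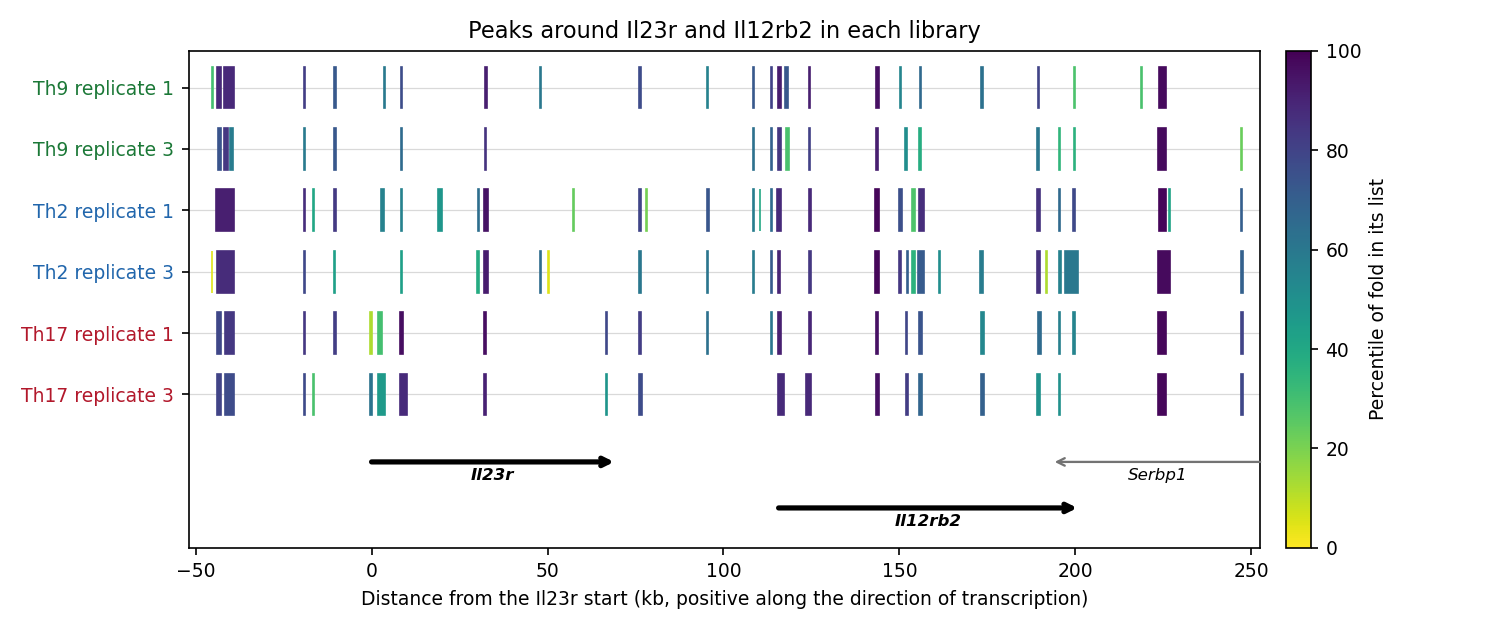
Peaks of each library around Il23r and Il12rb2, by distance in kb from the Il23r start along the direction of transcription. Each bar is 1 peak, outlined in its own colour so that narrow peaks remain visible, and the colour is its percentile in its list. Peaks at the Il23r start appear in the Th17 libraries only, while the Il12rb2 start near 116 kb has a peak in all 6.

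Il12rb2 (ENSMUSG00000018341.12, chr6:67291318-67376188, minus strand, 16 exons) had an accessible promoter in all 3 subsets. The percentiles there were 91.9 and 84.3 for Th9, 88.1 and 89.8 for Th2 and 91.0 and 88.1 for Th17. The subsets overlapped, and the differences of the region were 0.11 between Th17 and Th9 (adjusted p = 0.814), 0.15 between Th17 and Th2 (adjusted p = 0.746) and 0.04 between Th9 and Th2 (adjusted p = 0.945). Such a promoter peak in all 6 libraries is the usual case (58.7% of genes). In intron 1, the region at 8.52 kb was as even, at percentiles 80.6 to 91.8. The strongest region of the gene lay in intron 7 (chr6:67347673-67348725), at 96.0 and 91.6 for Th9, 98.1 and 98.1 for Th2 and 95.4 and 96.0 for Th17.

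A second transcript of Il12rb2 starts inside the gene, at position 67339694. Its start had a peak in both Th17 libraries and in 1 library each of Th9 and Th2. Th17 had peaks at percentiles 79.3 and 82.2. Of the Th9 and Th2 libraries, only the replicates numbered 3 had one, at 51.0 for Th9 and 70.1 for Th2. Both Th17 values thus lay above the called values of Th9 and Th2, but the region was not called in all 6 and was not part of the fit. When uncalled libraries were set to the weakest fold of their list, the differences were 0.87 from Th9 (adjusted p = 0.154) and 0.76 from Th2 (adjusted p = 0.201), and neither passed.

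Next to that start, other sites of intron 7 were called in Th2 and not in Th17. The region chr6:67341235-67341954 was called by the Th2 pair at 76.1 and 83.7 and by Th9 replicate 1 at 54.3, and by no Th17 library. The region chr6:67337525-67338231 was called in both Th2 libraries only, at 28.0 and 35.7. With the site in Il23r intron 6, this region made 2 of the 59 called in the Th2 pair alone. In intron 1, the region chr6:67373320-67374239 was called in both Th9 libraries only, at 72.9 and 28.6, a pattern of 1.31% of all regions. It was the only such region of the 59.

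Upstream of Il12rb2, the intergenic region chr6:67383176-67383573 was the 1 region of 59 that both Th9 and both Th2 libraries called and neither Th17 library did, against 2.0% of all regions. Its percentiles were 72.4 and 63.2 for Th9 and 57.9 and 58.4 for Th2. Peaks were 375 to 393 bp wide in the 4 libraries. At a −log10 q of at least 5 this pattern was gone. With uncalled libraries at the weakest fold of their list, the limma differences of Th17 were -0.66 from Th9 (adjusted p = 0.0588) and -0.39 from Th2 (adjusted p = 0.169). Neither passed. The folds of this site were 3.11 and 2.75 for Th9 and 2.38 and 2.65 for Th2. At a fold of at least 4 its peaks were therefore lost, and 1 other region had the pattern. That region, chr6:67530965-67536001, lies upstream of Il23r, and its Th17 folds of 3.92 and 3.39 fell under that limit.

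In intron 12 of Il12rb2 the Th17 libraries were lower. The region chr6:67301593-67302900 had percentiles of 80.0 and 60.3 for Th9, 85.3 and 85.6 for Th2 and 65.6 and 48.9 for Th17. It was lower in Th17 than in Th2 by 0.77 on the log2 scale (difference -0.77 ± 0.19, adjusted p = 0.0193 in the limma fit). The Th17 and Th2 values did not overlap, but in percentile Th9 replicate 3 lay among the Th17 values. In fold it stood at 2.66, above the Th17 values of 2.58 and 2.17. The difference between Th17 and Th9 in the limma fit was -0.28 ± 0.19 (adjusted p = 0.473). Intron 12 held another region, called in Th2 replicate 3 alone at 12.4. The call against Th2 was lost without Th2 replicate 3, Th17 replicate 1 or Th17 replicate 3.

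Introns 8 and 14 and the 3′ end of Il12rb2 held the remaining regions. The region of intron 8 at 40.6 kb was called in all 6 libraries, at 65.7 and 37.5 for Th9, 86.7 and 71.7 for Th2 and 74.0 and 67.9 for Th17. The difference between Th9 and Th2 was -0.62 ± 0.19 and did not pass (adjusted p = 0.0906). Intron 8 held 2 more regions, at 57.8 kb in 4 libraries (53.6 to 69.2) and at 45.7 kb in Th2 replicate 3 alone (50.9). The region of intron 14, over an exon of Serbp1 on the other strand, was called in every library but Th9 replicate 1, at 34.6 to 65.6. The region at the 3′ end was called in every library but Th17 replicate 3, at 28.3 to 78.0.

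Outside the gene bodies, the remaining regions of the chromosome 6 locus were shared by the subsets or called in few libraries. Upstream of Il23r, the region at -19.1 kb was called in all 6, at percentiles 59.0 to 86.9, and the one at -10.5 kb in every library but Th17 replicate 3, at 43.5 to 82.9. Between the genes, the region 76.4 kb from the Il23r start was called in every library but Th9 replicate 3, at 60.4 to 81.9. The region at -1.99 kb from the Il12rb2 start lacked a call in Th17 replicate 3 only and stood at 61.3 to 80.5 elsewhere. The Serbp1 promoter, beyond the 3′ end of Il12rb2, gave the strongest region of the locus, at 97.3 to 98.7.

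Il12rb1 (ENSMUSG00000000791.9, chr8:70808449-70821424, plus strand), the shared chain, had an accessible promoter in all 6 libraries. Its promoter peak stood at 81.2 and 80.3 for Th9, 70.6 and 72.8 for Th2 and 66.0 and 79.0 for Th17. The peaks were much wider in Th9 and Th2 (2825 to 5774 bp) than in Th17 (1237 and 1149 bp), and ran further upstream there, toward Mast3. The joined region, 5774 bp in all, was fitted by the highest peak of each library, which was not the promoter peak in replicate 1 of each subset or in Th17 replicate 3. It gave no difference that passed the fit, with -0.002 ± 0.185 between Th17 and Th9 (adjusted p = 0.997) and 0.29 ± 0.19 between Th17 and Th2 (adjusted p = 0.447).

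Within the short body of Il12rb1, a region over exons 3 and 4 and intron 4 (chr8:70810408-70811684) was called in all 6 libraries. Its percentiles were 75.1 and 70.5 for Th9, 57.8 and 52.2 for Th2 and 86.5 and 68.6 for Th17. The Th2 values lay under the other 4, but the difference of 0.64 ± 0.20 between Th17 and Th2 did not pass (adjusted p = 0.067). The other region in the body, at 12.1 kb, was called in Th9 replicate 3 alone, at 12.9. Downstream of the gene, the region at 24.9 kb likewise had its lowest values in Th2, at 79.7 and 78.3 for Th9, 39.3 and 56.3 for Th2 and 80.4 and 74.8 for Th17. Its differences from Th2 were 0.65 for Th9 (adjusted p = 0.0737) and 0.63 for Th17 (adjusted p = 0.0546).

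**Figure D2:**
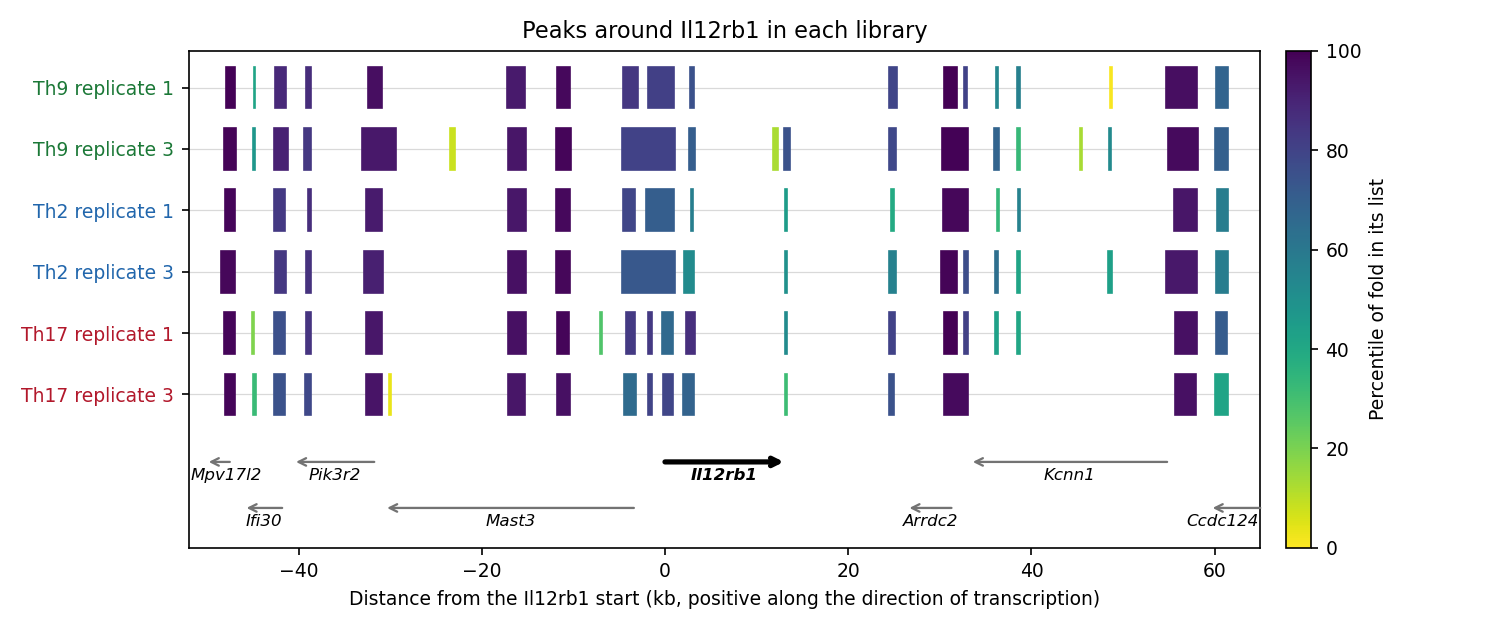
Peaks of each library around Il12rb1, by distance in kb from its start along the direction of transcription, coloured by percentile as in the map of the other locus. Most bars line up across the 6 libraries, and the wide promoter peaks of the Th9 and Th2 libraries reach upstream toward Mast3, where the Th17 libraries have separate narrower peaks.

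Around Il12rb1 the gene neighbours gave the strongest peaks, among them the promoters of Mpv17l2 and Arrdc2, at percentiles above 97 in every library. Of 21 regions there, 12 were called in all 6 libraries, against 10 of 38 on chromosome 6 and 21.4% of all regions. One of them passed the fit. The promoter of Ifi30, a gene for a thiol reductase of lysosomes (chr8:70765767-70767258), stood at 88.6 and 90.9 for Th9, 83.4 and 83.8 for Th2 and 75.5 and 74.8 for Th17. It was lower in Th17 than in Th9 by 0.71 on the log2 scale (difference -0.71 ± 0.20, adjusted p = 0.0469). The 3 subsets did not overlap, but the call was close to the threshold and was lost without Th9 replicate 3, Th17 replicate 1 or Th17 replicate 3. A region over an exon of Ifi30 was called in both Th9 and both Th17 libraries and in neither Th2 library, at 41.5 and 47.1 for Th9 and at 19.4 and 32.0 for Th17, a pattern of 0.296% of all regions.

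**Figure D3:**
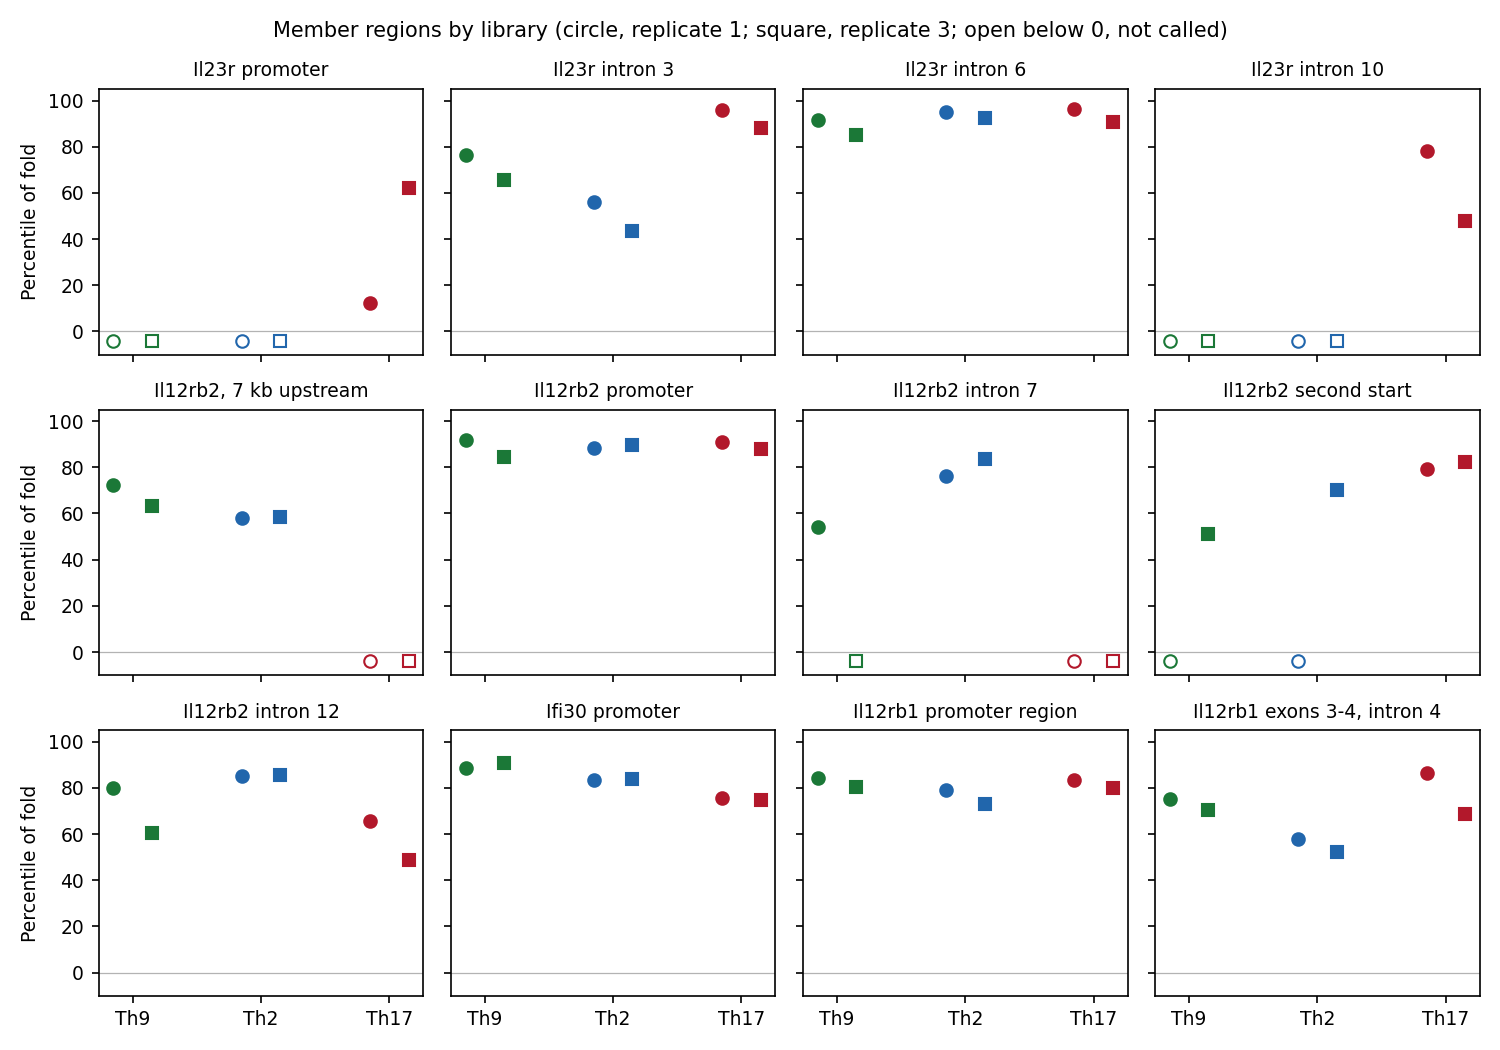
Percentile of fold enrichment in each library for 12 regions of the 3 genes. Filled circles are replicate 1 and filled squares replicate 3, and open symbols below 0 mark libraries without a peak. The Th17 values stand above the rest at Il23r intron 3 and below the Th2 values at Il12rb2 intron 12. At the Il23r promoter and intron 10 only the Th17 libraries have a peak, so no value of the others can be compared.

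Peaks of all 6 libraries covered 22 of the 59 regions, which entered the fit. Between Th17 and Th9, 1 was higher (background 2.9%) and 1 lower (background 3.11%). Between Th17 and Th2, likewise 1 was higher (background 2.4%) and 1 lower (background 5.04%). Between Th9 and Th2, 0 of the 22 passed in limma in either direction (background 1.01% higher and 2.18% lower), and 7 had an unadjusted p under 0.05, against 17.9% of all regions. In the comparisons of Th17 with Th9 and with Th2, 3 and 5 had one, against 19.0% and 19.1%. The median differences were -0.01, 0.10 and 0.11 in the 3 comparisons, against 0.00, 0.03 and 0.01 over all regions.

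The signs of the differences were counted for the regions nearest each gene. In Th17 against Th9, 3 of 4 regions nearest Il23r were higher in Th17, 5 of 6 nearest Il12rb2 and 2 of 12 nearest Il12rb1, beside 50.2% of all regions. In Th17 against Th2 these were 2 of 4, 3 of 6 and 10 of 12, beside 55.5%. In Th9 against Th2, of 12 regions nearest Il12rb1, 11 had a higher value in Th9, with a median difference of 0.33, of 6 nearest Il12rb2, 2 did, with a median of -0.30, and of 4 nearest Il23r, 1 did, with a median of -0.27. Over all regions 52.6% were higher in Th9. When libraries were centred on their medians in place of quantile normalization, the counts for Th9 against Th2 were 12 of 12, 3 of 6 and 1 of 4, against 66% over all regions, with the median of all regions moved to 0.12. Neighbouring regions are not independent, and no test was made of these counts.

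**Figure D4:**
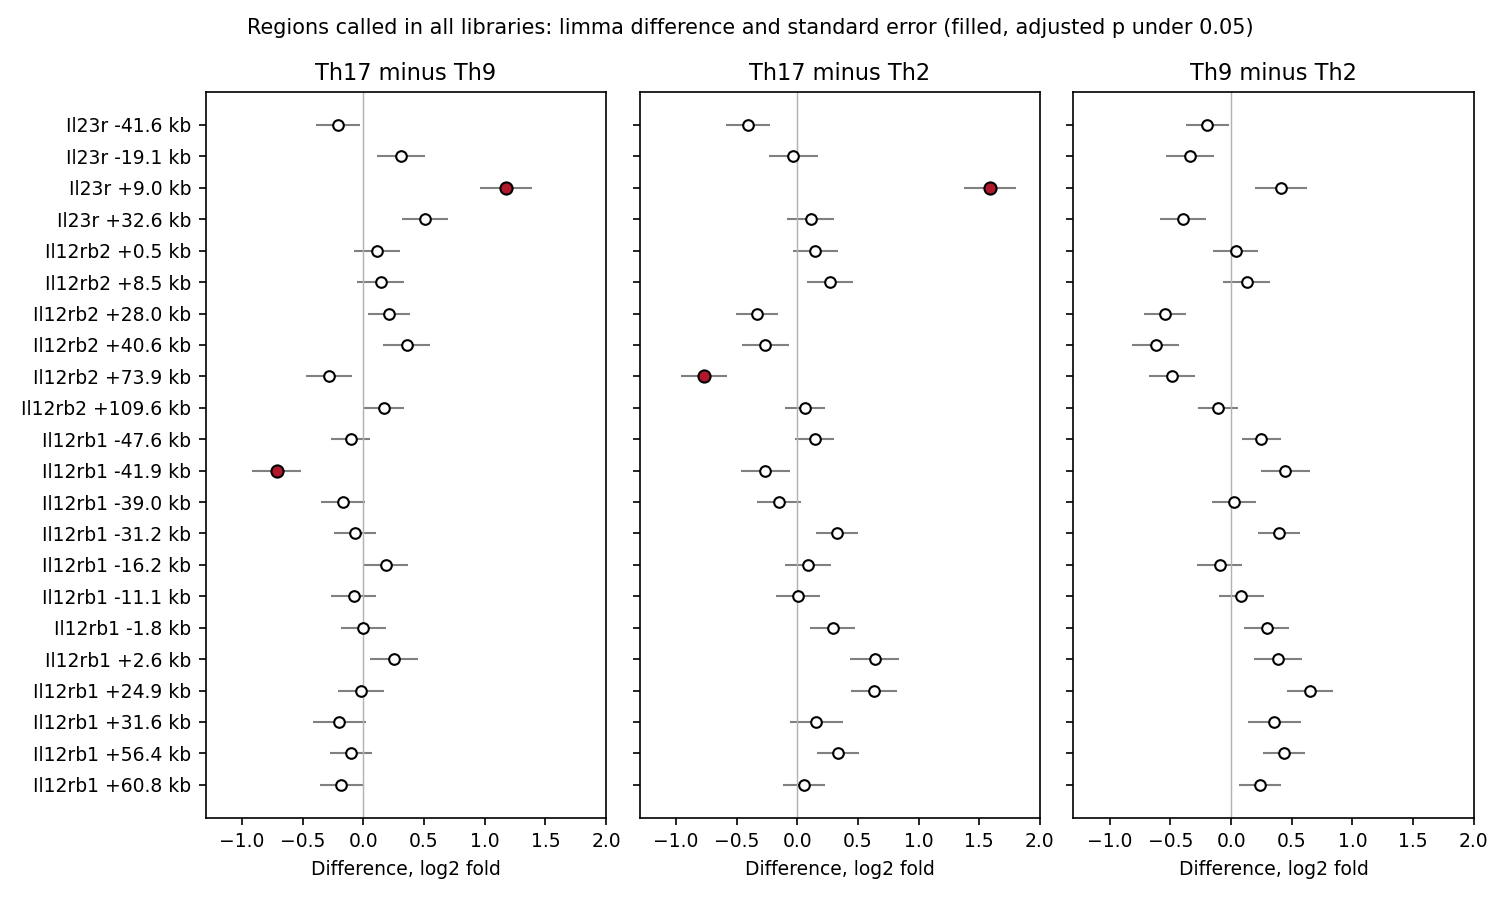
Differences in log2 fold between subsets, with standard errors, for the 22 regions called in all 6 libraries, ordered by gene and by distance from the gene's start in kb. Filled points passed the threshold, namely intron 3 of Il23r in both comparisons with Th17, intron 12 of Il12rb2 and the Ifi30 promoter.

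The total length under peaks around each gene was compared between Th17 and the other 4 libraries. Around Il23r it was 9.67 and 6.30 kb for Th9, 13.7 and 10.4 kb for Th2 and 9.41 and 11.8 kb for Th17. The Th17 mean of 10.6 ± 1.72 kb (SD, n = 2) and the mean of the rest, 10.0 ± 3.02 kb (n = 4), did not differ beyond their spread (two-sided exact permutation test, p = 0.80, adjusted over the 3 genes 0.867). Around Il12rb2 the lengths were 8.29 and 7.86 kb for Th9, 12.6 and 17.4 kb for Th2 and 9.94 and 11.0 kb for Th17 (exact p = 0.867). Around Il12rb1 they were 20.9 and 29.0 kb for Th9, 20.2 and 24.8 kb for Th2 and 18.9 and 19.8 kb for Th17 (exact p = 0.133, adjusted 0.40). Here both Th17 libraries lay below the other 4, by 4.39 kb on average and by 2.62 kb without Th9 replicate 3. Relative to the covered length of each list the groups overlapped (exact p = 0.733). Choosing 2 of 6 libraries can be done in 15 ways, and p could not fall under 0.0667.

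Within the gene bodies alone, peaks covered 1.40 and 0.623 kb of Il23r for Th9, 3.88 and 2.35 kb for Th2 and 2.63 and 4.47 kb for Th17. The Th9 libraries thus had the least of Il23r under peaks. In Il12rb2 they covered 4.55 and 4.68 kb for Th9, 7.33 and 11.7 kb for Th2 and 5.89 and 7.09 kb for Th17, so that the Th2 libraries had the most. Peaks covered 2.96% to 4.31% of the genome in the 6 lists, with the Th2 lists highest and Th9 replicate 3 lowest. Th9 replicate 1, the shallowest library, covered 3.74%, more than the Th17 lists (3.52% and 3.36%).

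**Figure D5:**
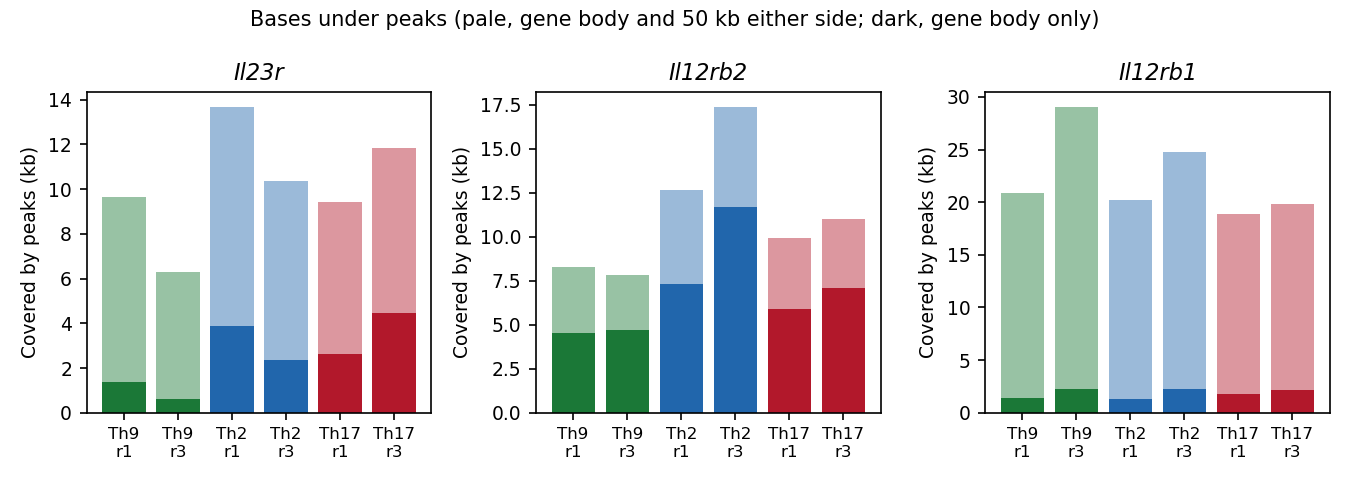
Length under peaks in kb around each gene in each library, in pale bars for the gene body with 50 kb on either side and in dark bars for the gene body alone. Around Il12rb1 the Th17 libraries have the shortest length, and in the body of Il12rb2 the Th2 libraries have the longest.

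The pathway around the receptors was followed at 26 other promoters, those of the ligand subunits, related receptor chains, kinases, STAT factors, inhibitors and genes that go with responses to IL-12 or IL-23. Of these, 13 had a promoter peak in all 6 libraries, 2 in none and 11 in some, beside 58.7% and 28.0% of all genes. Most signalling genes were open throughout. Jak2, Tyk2, Stat3, Il6st and the inhibitor genes Socs1 and Socs3 stood between percentiles 90.6 and 99.7 in every library. Stat4, the main STAT factor of IL-12, was weaker, at 62.4 to 79.2, with no call in Th9 replicate 3.

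Of 13 response genes, 4 had a promoter peak in all 6 libraries (Il21, Il18r1, Il18rap and Prdm1), 2 in none and 7 in some. Il17f had a promoter peak in the Th17 libraries only, at 86.7 and 87.5, and Il17a at 81.4 and 69.5 there and at 36.1 in Th2 replicate 3. Both encode interleukin 17 cytokines. Tbx21, the gene of the Th1 factor T-bet, had a peak in both Th9 libraries at 43.9 and 15.3 and in the Th2 pair at 3.63 and 4.73, with none in Th17. Ccr6, a chemokine receptor gene of Th17 cells, was called in both Th9 libraries at 81.3 and 77.3, in Th2 replicate 1 at 7.53 and in Th17 replicate 3 at 48.9. Csf2 and Il1r1 lacked a call in 1 library each, Th17 replicate 3 and Th9 replicate 3, Ccl20 had one in Th17 replicate 3 alone, at 10.2, and Ifng and Il22 had none in any library. The ligand subunit gene Il12a had a promoter peak in Th9 (70.8 and 51.9) and Th2 (61.6 and 63.1) and not in Th17. The joined region that reaches its promoter was called in all 6 libraries, and its differences of -0.23 between Th17 and Th9 (adjusted p = 0.414) and -0.20 between Th17 and Th2 (adjusted p = 0.499) did not pass the limma fit. Il23a was called in 1 library of each subset, at 45.6 to 69.7.

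The fit used joined regions that overlap a promoter, which can extend beyond it. Such a region was called in all 6 libraries for 16 of the 26 genes, among them Il12a, Stat4 and Ccr6, whose promoters lacked a peak in some libraries. Il21, a cytokine gene of Th17 and follicular helper cells, was higher in Th17 than in Th9 by 0.71 (adjusted p = 0.0453), and Il18rap, a chain of the IL-18 receptor, was lower, with a difference of -0.67 (adjusted p = 0.0424). These were 1 of 16 in each direction, against 2.9% and 3.11% of all regions. Between Th17 and Th2, 0 of the 16 passed in limma in either direction (2.4% higher and 5.04% lower over all regions), and 3 had an unadjusted p under 0.05, against 19.1% of all regions. In Th9 against Th2, Jak2 was higher by 0.77 (adjusted p = 0.021) and Socs3 by 0.78 (adjusted p = 0.0247), against 1.01% of all regions, and 0 were lower (2.18% of all regions). Of the 16, 8 had an unadjusted p under 0.05 here, against 17.9% of all regions. With uncalled libraries at the weakest fold, 0 of 148283 regions passed between Th9 and Th2, so the calls of Jak2 and Socs3 were lost. Those of Il21 and Il18rap were close to the threshold. The calls of single pathway genes were not followed under the other alternatives. The median of the 16 was -0.20, 0.11 and 0.28 in the 3 comparisons, against 0.00, 0.03 and 0.01 over all regions.

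Finally, genes were ranked by how close their promoter percentiles over the 6 libraries were to those of each member, by Euclidean distance with 0 for a missing call, among 19862 protein-coding genes. Closest to Il23r were Olfr1494 (distance 4.61), Ifna15 (9.72), Prg4 (12.1), Haao (12.6) and Cd302 (12.6), of which Haao and Cd302 had a call in Th17 replicate 3 alone. Closest to Il12rb2 were Tspan32 (1.71), Eefsec (2.06), Ndrg4 (2.13), Slc28a2 (2.68) and Gpatch1 (2.88). Closest to Il12rb1 were Zfp974 (4.03), Enah (6.25), Tmem173 (7.57), Mrpl53 (8.14) and Pidd1 (8.48). This likeness is a description over 6 points.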

How the data were processed

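ATAC-seq was analysed for 6 libraries of mouse T helper cells, 2 each of Th9, Th2 and Th17. Per the labels and the study's methods, the authors trimmed reads with Trim Galore 0.4.3, aligned them with Bowtie2, removed duplicates with Picard and called broad peaks with MACS2 2.1.0 on each library alone, against 1 genome-wide background and without an input control (versions from the submitters' processing notes). The cutoff for peaks is not given in the sources used here. Each deposited list holds a score, not used here, the fold enrichment (a linear ratio), and the p-value and q-value as −log10. The fold is an average over a broad peak.

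Genes were those of GENCODE M21 (basic) on GRCm38, whose chromosome lengths no peak exceeded. Overlapping or touching peaks were joined into regions, and the highest peak of a library gave its value. The fold became a percentile in its list, and log2 folds of regions called in all 6 libraries were quantile normalized and compared with limma 3.58.1 (R 4.3.3; trend, all 6 libraries in 1 fit, two-sided, Benjamini-Hochberg over 50493 regions, threshold 0.05). Covered lengths were compared by an exact permutation test. Depth, the background coverage behind each list, was recovered from the fold and p of flat peaks, and the lists hold no counts per region, so no counting interval is given. The genes, lists and tests were chosen with earlier results of these data known. Regions named were those in a member's body or promoter, others in both libraries of 1 or 2 subsets and no library of the rest, and those that passed. Genes named were the members, their neighbours, a list of 26 pathway genes and the 5 closest in promoter pattern (names of Gm and a digit or ending in Rik left out). Of the 3 members, 2 matched the RefSeq promoter table. The Il12rb1 promoter sequence is named only. Some listed genes are not reported here. The alternatives are listed with their effect in the closing section.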

Additional observations from a re-analysis of the deposited data

How the results depend on the processing

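Peak lists give no counts, so a missing call is a value under a limit that differs between libraries, and strength can be compared only where all 6 libraries have a peak. Regions passing between Th17 and Th9 (2 as reported) were 0 with normal scores of the percentile, 0 at a −log10 q of at least 5 and 0 at a fold of at least 4, and 0 to 3 with 1 library left out. Between Th17 and Th2 (2 as reported) they were 4 with median centring, 1 with normal scores, 1 with uncalled libraries at the weakest fold, 0 at a −log10 q of at least 5, 0 at a fold of at least 4 and 1 to 3 with 1 library left out. Between Th9 and Th2 (0 as reported) median centring gave 1. Median centring moved the median of all regions to 0.12 between Th9 and Th2 and 0.10 between Th17 and Th2, and the share of calls that were higher in Th9 than in Th2 from 31.7% to 52.1%. With normal scores that share was 12.5%, and the share higher in Th17 moved from 48.2% to 27.1% against Th9 and from 32.2% to 9.39% against Th2. Regions called in the Th17 pair alone (2) were 0 at a −log10 q of at least 5, 1 at a fold of at least 4, 0 at a fold of at least 2.2, 1 in lists of equal length, 4 in bins of 1 kb and 2 to 3 with 1 library left out. Regions of both Th9 and Th2 pairs alone (1) were 0 at a −log10 q of at least 5, 3 with 50% of a region covered, and 1 to 6 with 1 library left out, the highest without Th17 replicate 1. Regions in all 6 libraries (22) were 10 at a fold of at least 4, 11 with 50% covered and 49 in bins of 1 kb. The covered length around Il23r, 0.623 kb higher in Th17, was -2.51 at a fold of at least 4 and ranged from -0.612 to 1.84 with 1 library left out, below 0 without Th9 replicate 3 (-0.612) or Th17 replicate 3 (-0.593). Around Il12rb2 the difference, -1.07 kb, was 0.161 relative to the covered length of each list and ranged from -2.30 to 0.873, above 0 without Th2 replicate 3 (0.873). Promoter calls of Il23r (2 libraries) were 1 at a −log10 q of at least 5 and 0 at a fold of at least 4. They were 1 in lists of equal length. With 1 library left out they were 1 to 2, which follows from the count itself, since only the Th17 libraries had a call. Promoter calls of Il12rb1 (6) were 0 at a fold of at least 4. The covered length around Il12rb1, -4.39 kb, ranged from -5.57 to -2.62 with 1 library left out, the smallest without Th9 replicate 3. The call of Il12rb2 intron 12 was also lost with normal scores and with uncalled libraries at the weakest fold, and that of the Ifi30 promoter with these and with the −log10 q limit of 5. Deviations of same-numbered replicates had correlations of 0.207 between Th9 and Th2, 0.01 between Th9 and Th17 and 0.001 between Th2 and Th17, so the replicate numbers were not taken to pair the libraries. With uncalled libraries at the weakest fold, a region inside the annotated span of Serbp1, outside its exons (chr6:67244320-67244892), was higher in Th17 than in Th9 in the limma fit (0.93, adjusted p = 0.0371). With a replicate block, 2, 3 and 0 regions passed in the 3 comparisons. The causes of these changes were not tested.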
